A study of Mus musculus with 6 samples.

Results

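Keratins and cell junction genes were followed in cells of the Lewis lung carcinoma line (LLC, mouse lung cancer) that carried red fluorescent protein and were sorted from tumours that had grown with or without bone marrow-derived mesenchymal stem cells (BMSCs). The 10 genes were picked out by their symbols from 18182 genes in the files. They are the keratins Krt7, Krt8, Krt18 and Krt19, the epithelial adhesion molecule Epcam, the desmosome genes Dsp and Cdsn, and the tight junction genes Tjp1, Ocln and F11r. Wild type C57BL/6 mice received LLC-RFP cells under the skin, either alone (LLC alone) or together with BMSCs (LLC with BMSCs), and 3 libraries were made for each group. The labels give no age for these mice and do not say whether a library came from 1 tumour or from a pool, so that the p values measure the spread between these libraries only. The study's methods name 6-week-old female C57BL/6 mice for tumour growth with LLC cells that carried luciferase. For the mice of the RNA libraries they state no age or sex. Both groups carried the same fluorescent tumour line, and no group without tumour cells was sequenced.

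Keratins form the intermediate filaments of epithelial cells, and a filament is built from a type I keratin paired with a type II keratin. Krt8 (type II) and Krt18 (type I) are the usual partners of simple epithelia, and Krt7 (type II) and Krt19 (type I) are found in glandular and ductal epithelia, the lung airways among them. Desmosomes tie these filaments to the cell surface through desmoplakin (Dsp), and corneodesmosin (Cdsn) is known from the modified desmosomes of the outer epidermis. Tight junctions seal the space between epithelial cells with membrane proteins such as occludin (Ocln) and junctional adhesion molecule A (F11r), which bind the scaffold protein ZO-1 (Tjp1) on the inner side of the membrane.

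The groups were compared with a quasi-likelihood test in edgeR on estimated fragment counts, a gene being called where the p value adjusted over all tested genes was under 0.05. Levels are given as FPKM (fragments per length of transcript and per size of library), and normalized counts are counts scaled to a common library size. The 10 genes did not move as a group. In LLC with BMSCs, Cdsn was 19.4-fold lower and F11r 2.98-fold lower, and Dsp was lower from a low level. Krt18 was 7.51-fold higher, also from a low level, while Krt8 and Tjp1 were higher by 1.14-fold and 1.35-fold. Ocln did not pass the test, and Krt7, Krt19 and Epcam had too few counts to be tested. Of the 7 tested members, 3 were higher and 3 lower, where 31.5% of all 13353 tested genes were higher and 31.3% lower (62.9% in either direction). Called with a log2 fold change of at least 1 in size were 4 of the 7 tested members and 15.8% of all tested genes. The libraries of both groups did not overlap in normalized counts for 6 of the 7 tested members, against 71.3% of all tested genes.

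The estimated counts on genes summed to between 33476347 and 46189113 fragments per library. LLC alone replicate 3 stood apart by transcript length, with a median deviation of 0.31 (log2) over the shortest 20 percent of tested genes and -0.37 over the longest. The LLC with BMSCs replicates 1 to 3 tilted the other way, at -0.19, -0.09 and -0.11 over the shortest and 0.18, 0.10 and 0.13 over the longest. LLC alone replicates 1 and 2 lay between (0.06 and 0.04 over the shortest), so that the trend over length also followed the groups. The RNA was from bulk sorted cells, so that fewer cells of a type and less RNA per cell cannot be told apart. Genes of other cell types moved with the groups. The summed level of 12 BMSC and fibroblast markers was 362 to 428 CPM (counts scaled by the library total alone) in LLC alone and 810 to 855 in LLC with BMSCs, with 10 of 10 tested genes higher. Untested were Thy1, with 0 counts in each LLC alone library against 0, 2 and 1, and Cxcl12, with 0 against 12, 7 and 8. Most of this sum was Col3a1, a collagen with 8030 to 10962 counts in LLC alone and 23863 to 24924 in LLC with BMSCs. Eng, Pdgfra and Pdgfrb were abundant in LLC alone too (4636, 1888 and 1798 counts in replicate 1). They changed by 0.26 (SE 0.08), 0.47 (0.11) and 0.41 (0.11) on the log2 scale. Col1a1, a collagen of fibroblasts, had 2, 4 and 4 counts against 586, 499 and 477 (log2 fold change 7.14, SE 0.22), and Dcn, the matrix proteoglycan decorin, 8 in each against 506, 526 and 492 (5.87, SE 0.14). For 9 neutrophil markers the sum was 0.88 to 1.2 against 37.5 to 40.8 CPM (7 of 7 tested genes higher), and for 12 macrophage markers 10.4 to 12.2 against 18.9 to 19.5 CPM (5 of 7 higher, 2 lower). Single markers differed. Adgre1 had 0 counts in each LLC alone library and 60, 79 and 63 in LLC with BMSCs. Elane, which was not tested, had 0 against 11, 10 and 5. Ly6g did not rise, with 4, 3 and 1 counts against 3, 1 and 1. Cd163 had 13, 5 and 5 against 8, 1 and 2. C1qa, C1qb and C1qc had 3 counts or fewer in any library, and Cd68 and Cx3cr1 were the lower macrophage genes. Platelet markers summed to 4.37 to 4.83 against 6.7 to 6.9 CPM (3 of 3 tested genes higher), and endothelial markers to 3.31 to 4.51 against 3.29 to 4.22 CPM (1 higher, 1 lower and 2 not called). The part of such cells in the changes of keratin and junction genes was not tested.

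**Figure D1:**
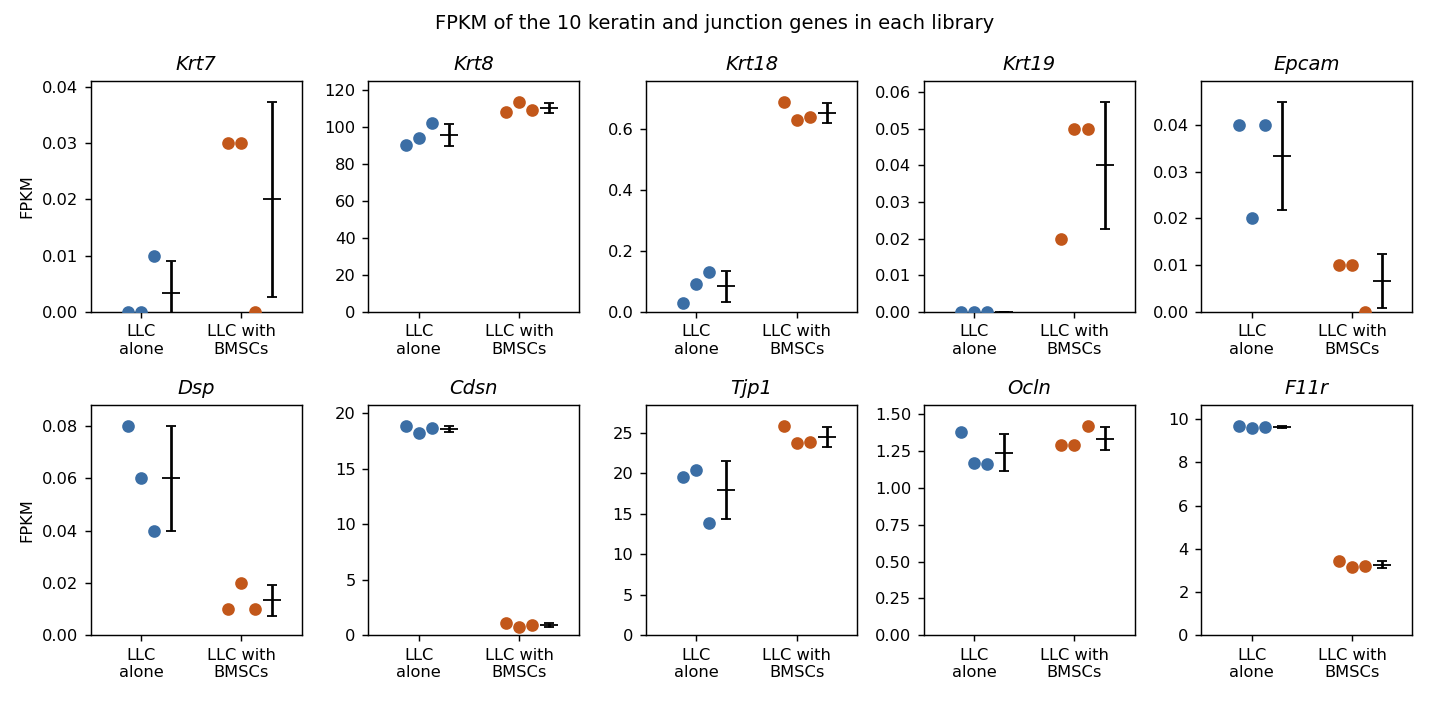
FPKM of each of the 10 genes (vertical axis, linear from 0, with its own scale in each panel) in the 3 LLC alone libraries (blue) and the 3 LLC with BMSCs libraries (orange), with the mean and SD in black. Cdsn and F11r sit lower in all 3 LLC with BMSCs libraries, Krt18 sits higher at under 1 FPKM, and the panels of Krt7, Krt19, Epcam and Dsp do not reach 0.1 FPKM.

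Promoters are shown for 4 members, which are the neighbouring genes of the keratin partners Krt8 and Krt18, far apart in level, and Cdsn and F11r, the members with over 100 normalized counts that fell. The sequences are the 250 bases upstream of the start in RefSeq on GRCm38.p6, read 5′ to 3′ on the strand of the gene, with CACCTG or CAGGTG in capitals, which are both strands of the E-box that SNAI and ZEB repressors are known to bind.
Krt8, chr15:102004343-102004592, minus strand: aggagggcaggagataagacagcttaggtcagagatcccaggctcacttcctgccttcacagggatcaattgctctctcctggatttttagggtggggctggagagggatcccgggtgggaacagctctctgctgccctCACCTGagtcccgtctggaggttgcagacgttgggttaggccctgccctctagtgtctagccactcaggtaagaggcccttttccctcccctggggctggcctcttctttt
Krt18, chr15:102027966-102028215, plus strand: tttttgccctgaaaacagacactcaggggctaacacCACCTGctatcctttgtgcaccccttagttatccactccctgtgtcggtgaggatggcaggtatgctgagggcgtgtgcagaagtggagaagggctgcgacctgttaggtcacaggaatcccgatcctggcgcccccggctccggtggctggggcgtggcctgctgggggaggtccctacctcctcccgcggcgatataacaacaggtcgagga
Cdsn, chr17:35551878-35552127, plus strand: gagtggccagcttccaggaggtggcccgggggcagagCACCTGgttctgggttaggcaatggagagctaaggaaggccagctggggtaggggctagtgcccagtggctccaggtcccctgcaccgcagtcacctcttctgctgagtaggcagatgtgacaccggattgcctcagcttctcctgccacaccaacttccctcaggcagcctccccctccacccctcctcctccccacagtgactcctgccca
F11r, chr1:171437311-171437560, plus strand: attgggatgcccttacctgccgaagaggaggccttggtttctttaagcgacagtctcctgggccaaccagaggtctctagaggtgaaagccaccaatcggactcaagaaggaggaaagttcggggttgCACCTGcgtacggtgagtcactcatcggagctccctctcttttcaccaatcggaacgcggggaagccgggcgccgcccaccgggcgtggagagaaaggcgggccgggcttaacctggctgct
Counted from 0 at the first transcribed base, the capitals start at -111 in Krt8, -214 in Krt18, -213 in Cdsn and -122 in F11r. The table held promoters for 9 of the 10 members (11 promoters, of 250 bases before and 50 after the start), and Krt19 had no entry. CACCTG or CAGGTG was present in 10 of the 11 promoters, those of 8 members, and in 20.2% of the 32851 promoters of the table. Tjp1 held neither. In Dsp and in 1 of the Ocln promoters the match lay after the start, at positions 3 and 7. The wider pattern CANNTG, which includes these words, was present in 10 of the 11 and in 72.3% of all promoters. TTCNNNGAA, the word that STAT factors are known to bind, was present in 1 of the 11, the other Cdsn promoter, and in 8.3% of all promoters. CACCTG or CAGGTG was present in promoters of members that were higher, lower and not called.

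Krt8 was by far the most abundant keratin in both groups. Its level was 90.30, 93.68 and 101.93 FPKM in LLC alone replicates 1 to 3 and 108.00, 113.28 and 108.78 FPKM in LLC with BMSCs replicates 1 to 3. Every LLC with BMSCs library was above every LLC alone library, by a margin that was small beside the level itself. By mean FPKM, Krt8 ranked 892 of 18182 genes in LLC alone and 667 in LLC with BMSCs. The gene lies at chr15:101996698-102004482 (GRCm38, minus strand). Normalized counts were 7170 ± 478 and 8156 ± 189 (SD, n = 3 each), and the log2 fold change was 0.19 (SE, standard error, 0.07, 95% interval 0.03 to 0.34, adjusted p = 0.0374). This call was lost without any 1 library other than LLC alone replicate 3, with log2 fold changes of 0.15 to 0.20 and adjusted p values of 0.0646 to 0.139 (edgeR). It was lost with upper-quartile scaling too (adjusted p = 0.0931). Without LLC alone replicate 3, the log2 fold change was 0.24 (adjusted p = 0.00145), and with the trend over transcript length removed it was 0.31 (adjusted p = 0.000106).

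Krt18, the usual partner of Krt8, was almost absent from LLC alone. The libraries held 2, 4 and 8 estimated counts in LLC alone and 41, 37 and 37 in LLC with BMSCs, which is 0.03, 0.09 and 0.13 FPKM against 0.69, 0.63 and 0.64 FPKM. The groups did not overlap, and each remained below 1 FPKM. The log2 fold change was 2.91 (SE 0.34, 95% interval 2.11 to 3.71, adjusted p = 2.21e-04). It ranged from 2.49 to 3.46 with any 1 library left out and was called each time. Krt18 lies at chr15:102028180-102032027 (plus strand), with 23697 bases between it and Krt8.

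The other simple keratins among the members were at the floor. Krt7 had 0, 0 and 1 counts in LLC alone and 2, 2 and 0 in LLC with BMSCs. Krt19 had 0 counts in each LLC alone library and 1, 3 and 2 in LLC with BMSCs. A count of 0 allows up to 3 counts, so no fold change is given for either gene. Entered in the fit without a filter on low counts, Krt7 had an adjusted p of 0.376 and Krt19 of 0.0578.

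Type II keratin thus stood far above type I keratin at the RNA level in both groups. The ratio of Krt8 to Krt18 in FPKM was 3010, 1041 and 784 in LLC alone and 157, 180 and 170 in LLC with BMSCs. On the log2 scale it was 10.40 ± 1.02 and 7.40 ± 0.10 (SD, n = 3 each), a difference of -3.00 (two-sided exact permutation p = 0.1, and 3 against 3 libraries allow no smaller one). The ratio in LLC alone rests on a Krt18 value of few counts and differed widely among the 3 libraries. With Krt7 and Krt19 added to their types, the difference was -3.09 (exact permutation p = 0.1).

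**Figure D2:**
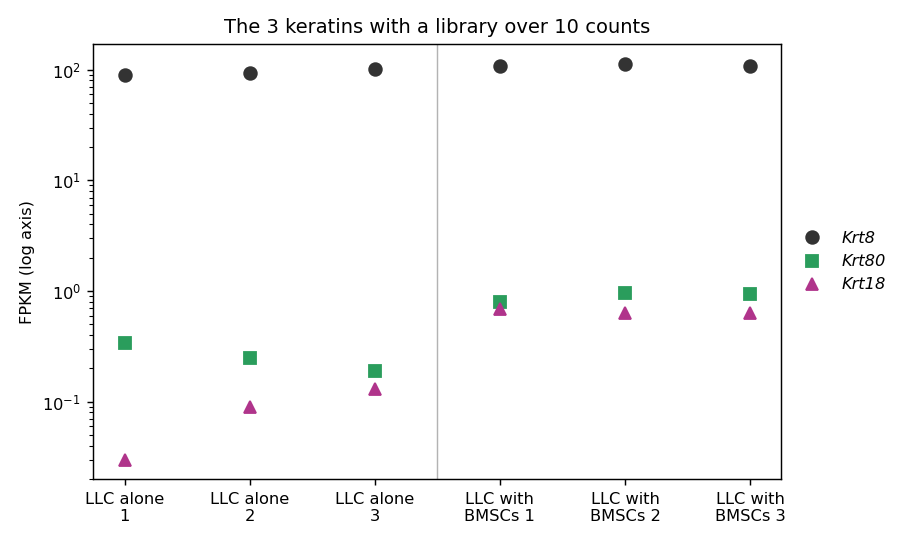
FPKM on a log axis of Krt8 (circles), Krt80 (squares) and Krt18 (triangles), the 3 keratins with over 10 counts in any library, in each of the 6 libraries. Krt8 lies between 90.30 and 113.28 FPKM in all libraries, and Krt80 and Krt18 lie below 1 FPKM and are higher in each LLC with BMSCs library.

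Across the keratin family, 21 genes were in the files, 11 of type II and 10 of type I. Of these, 18 had no library over 10 counts. Krt8 held 98.57% to 99.54% of all keratin counts in every library. The type I keratins summed to 13, 9 and 16 counts in LLC alone and to 46, 49 and 47 in LLC with BMSCs, of which Krt18 gave 2, 4 and 8 and then 41, 37 and 37. The only tested keratin outside the members was Krt80, a type II keratin, with 27, 14 and 15 counts in LLC alone and 60, 73 and 70 in LLC with BMSCs. It was higher in LLC with BMSCs, by a log2 fold change of 1.76 (SE 0.23, with adjusted p = 3.49e-04).

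Vim and Lmna were more abundant than any keratin. Vim, the filament of mesenchymal cells, stood at 887 ± 45.6 FPKM in LLC alone and 792 ± 33.8 in LLC with BMSCs, against 95.3 ± 5.98 and 110 ± 2.85 FPKM for Krt8 (SD, n = 3 each). Vim was lower by -0.18 on the log2 scale (SE 0.07, adjusted p = 0.0378), a call lost without LLC alone replicate 1 or without LLC with BMSCs replicate 2 or 3 (adjusted p up to 0.139). With the length trend removed, the log2 fold change of Vim was -0.07 (adjusted p = 0.274). Of 8 tested genes on the list of other intermediate filaments, 3 were higher, 3 lower and 2 not called, with a median log2 fold change of -0.09 against 0.01 for all tested genes. Nes, the filament gene nestin, was higher by 1.12 (SE 0.14, adjusted p = 2.81e-04) and Lmnb2, a B-type nuclear lamin, by 0.71 (0.06, adjusted p = 3.37e-05). Des, the muscle filament desmin, changed by -0.73 (0.16, adjusted p = 0.00557) and Lmna, the A-type lamin, by -0.56 (0.06, from 375 ± 18.4 to 264 ± 10.9 FPKM, adjusted p = 1.73e-04).

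Epcam was at or near the floor in both groups. It had 4, 1 and 4 counts in LLC alone and 1, 1 and 0 in LLC with BMSCs. Summed over the libraries and scaled by their totals, LLC alone held 4.74 times the level of LLC with BMSCs, with an exact 95% counting interval of 0.981 to 45.1. The interval includes 1, so a difference was not detectable at this depth, and in the fit without a filter the adjusted p was 0.0919. Lung epithelial genes, added after the values of the members were seen, were no higher. Nkx2-1, the lung lineage factor, had 0 to 4 counts in any library, and the surfactant genes Sftpb and Sftpc had 0 to 4 and 0 to 2. Scgb1a1, the club cell secretoglobin, had 0 or 1. These markers of lung epithelium were therefore at or near the floor in cells labelled as lung carcinoma.

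Cdsn showed the largest change of the members. Its level was 18.83, 18.24 and 18.67 FPKM in LLC alone and 1.14, 0.80 and 0.97 FPKM in LLC with BMSCs, from 2270, 1593 and 2249 counts against 133, 92 and 111. The spread within each group was small and the groups lay far apart. The log2 fold change of -4.28 (SE 0.11, 95% interval -4.54 to -4.01, adjusted p = 2.00e-07) remained between -4.41 and -4.15 without any 1 library. In LLC alone the mean FPKM of Cdsn was near that of Tjp1 (18.6 ± 0.305 and 17.9 ± 3.59, SD, n = 3 each) and above that of F11r and Ocln, and in LLC with BMSCs it was below all of them.

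The partners of Cdsn in the epidermis were mostly low or had no value. Of 20 genes listed for the cornified envelope and the corneodesmosome, 10 had a value and 4 were tested, of which 1 was higher and 3 were not called. The gene called was Sprr2d, a small proline-rich envelope protein, with 0 counts in each LLC alone library and 14, 20 and 18 in LLC with BMSCs, at least 5.29-fold higher against 3 counts per library. Cst6 and Psors1c2 were among the genes not called, but were called with the length trend removed (log2 fold changes -0.63 and 0.97, adjusted p = 0.03 and 0.0144). Of 15 keratinocyte markers, 6 had a value, with a summed level of 6.37 to 6.87 CPM in LLC alone and 6.9 to 7.43 CPM in LLC with BMSCs, and neither of the 2 tested genes was called. Krt10, a keratin of the upper epidermis, had 0 or 1 count, and Trp63, the factor of basal keratinocytes, 0 to 4. Most of the sum was Sbsn, an epidermal secreted protein, with 275, 212 and 281 counts against 276, 275 and 285 (log2 fold change 0.02, SE 0.08, adjusted p = 0.808). With the length trend removed, both tested genes were called, Sbsn at 0.25 (adjusted p = 0.0376) and the epidermal 14-3-3 protein Sfn at 1.02 (adjusted p = 0.017) in place of 0.85 (adjusted p = 0.0507). Sfn was also called without LLC alone replicate 3 (adjusted p = 0.00904) or LLC with BMSCs replicate 2.

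Cdsn lies at chr17:35552128-35557180 (GRCm38, plus strand), and no annotated gene overlaps it. Psors1c2, the nearest gene before it at a distance of 17481 bases, had 16, 6 and 14 counts in LLC alone and 21, 17 and 23 in LLC with BMSCs. It was not called (log2 fold change 0.67, SE 0.28, adjusted p = 0.0691), though with the length trend removed its log2 fold change was 0.97 (adjusted p = 0.0144). The nearest gene after Cdsn was the pseudogene Gm9613, which was not analysed here.

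The 5 genes most like Cdsn over the 6 libraries, by the Euclidean distance of centred log2 CPM values, were Avil (distance 0.42), Serpinb9g (0.42), Atoh8 (0.44), Csn3 (0.47) and Tnfsf18 (0.48). Avil encodes the actin-binding protein advillin, Serpinb9g a serpin, Atoh8 a basic helix-loop-helix factor, Csn3 the milk protein kappa-casein and Tnfsf18 the TNF family ligand GITRL. Mean normalized counts of Avil were 2071 in LLC alone and 92.9 in LLC with BMSCs, those of Atoh8 1012 and 42.3, those of Csn3 496 and 28.7, those of Tnfsf18 250 and 9.03, and those of Serpinb9g 103 and 2.9. Since these genes were chosen for their likeness to Cdsn, their fall is a description. Csn3 was also on the list of mammary epithelium markers, of which 5 had a value and 2 were tested. Both were lower, the other being the growth factor Areg with 2465, 1706 and 2621 counts against 1105, 1128 and 1165.

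Dsp, which links keratin filaments to the desmosome, was low in both groups. It had 35, 19 and 19 counts in LLC alone and 3, 7 and 6 in LLC with BMSCs, at most 0.08 FPKM. The groups did not overlap. The log2 fold change was -2.26 (SE 0.38, 95% interval -3.14 to -1.37, adjusted p = 0.00133) and ranged from -2.49 to -1.97 without any 1 library. The abundant keratin Krt8 thus stood beside a desmoplakin RNA level of 0.0133 ± 0.00577 FPKM in LLC with BMSCs and 0.06 ± 0.02 FPKM in LLC alone (SD, n = 3 each).

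Of the other desmosome and keratin-linker genes, 15 of 21 had a value and 10 were tested, of which 2 were higher, 3 lower and 5 not called (median log2 fold change 0.10, against 0.01 for all tested genes). Of those not called, Dst (log2 fold change 0.44, adjusted p = 0.00538), Pkp3 (0.27, adjusted p = 0.0419) and Eppk1 (-0.61, adjusted p = 0.0152) were called with the length trend removed. The lower genes, named after their values were seen, were the desmosomal cadherin Dsc1, with 16, 11 and 11 counts in LLC alone and 0 in each LLC with BMSCs library (at least 4.54-fold lower), and Ppl and Evpl, the plakins periplakin and envoplakin of the cornified envelope, each by -1.28 on the log2 scale (adjusted p = 0.0122 and 0.00421). Both plakins were low, Ppl with 26, 11 and 16 counts against 6, 10 and 7, and Evpl with 16, 13 and 17 against 7, 8 and 5. Plec, which encodes the cytolinker plectin, was higher by 0.66 (SE 0.21, adjusted p = 0.0251). Its call was lost without LLC with BMSCs replicate 1 or 3 (adjusted p up to 0.0922), and with the length trend removed its log2 fold change was 0.34 (adjusted p = 0.000688). Col17a1, a hemidesmosome collagen, was the other higher gene, at 1.20 (SE 0.20, adjusted p = 0.00111), from 27, 21 and 32 counts to 75, 70 and 52. Pkp2, a plakophilin of the desmosomal plaque, was well expressed at 12 ± 0.182 and 12.3 ± 0.537 FPKM (SD, n = 3 each) and was not called (log2 fold change 0.02, SE 0.05, adjusted p = 0.791), whereas Jup, the plaque protein plakoglobin, had 3 to 11 counts in any library.

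F11r, a membrane protein of the tight junction, fell in LLC with BMSCs. Its level was 9.69, 9.58 and 9.61 FPKM in LLC alone and 3.44, 3.14 and 3.23 FPKM in LLC with BMSCs. The 3 libraries of each group lay close together and the groups were well apart. The log2 fold change was -1.58 (SE 0.07, 95% interval -1.73 to -1.42, adjusted p = 1.53e-06), between -1.62 and -1.54 without any 1 library. F11r lies at chr1:171437535-171464603 (GRCm38, plus strand), and only 1 transcript was listed for it, so that transcript use could not be compared.

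Ocln, the other membrane protein, did not change detectably. Its level was 1.38, 1.17 and 1.16 FPKM in LLC alone and 1.29, 1.29 and 1.42 FPKM in LLC with BMSCs, and the groups overlapped. The log2 fold change was 0.08 (SE 0.10, with adjusted p = 0.518), with a 95% interval of -0.16 to 0.32 that excludes a change of the size seen for F11r.

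Tjp1, the scaffold ZO-1, was higher in LLC with BMSCs. Its level was 19.59, 20.40 and 13.81 FPKM in LLC alone and 25.87, 23.68 and 23.82 FPKM in LLC with BMSCs. The groups did not overlap, and the lowest value was that of LLC alone replicate 3, the library with low values of long genes, to which the Tjp1 transcripts of 6891 to 7054 bases belong. The log2 fold change was 0.43 (SE 0.14, 95% interval 0.11 to 0.75, adjusted p = 0.0258). Without LLC alone replicate 3 it was 0.28 (adjusted p = 0.00185), and with the length trend removed 0.22 (adjusted p = 0.00801). The call was lost without LLC with BMSCs replicate 1, 2 or 3 (adjusted p = 0.0893, 0.0512 and 0.0563).

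Transcript use of Tjp1 and Ocln did not differ detectably between the groups. The Tjp1 transcript of 6891 bases held 62.2% ± 4.5 of the FPKM of the gene in LLC alone and 57.9% ± 3.3 in LLC with BMSCs (SD, n = 3 each, exact permutation p = 0.3). The Ocln transcript of 3192 bases held 73.5% ± 5.5 and 75.4% ± 10.7 (exact permutation p = 0.9). With 3 libraries against 3, no two-sided p below 0.1 is possible.

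**Figure D3:**
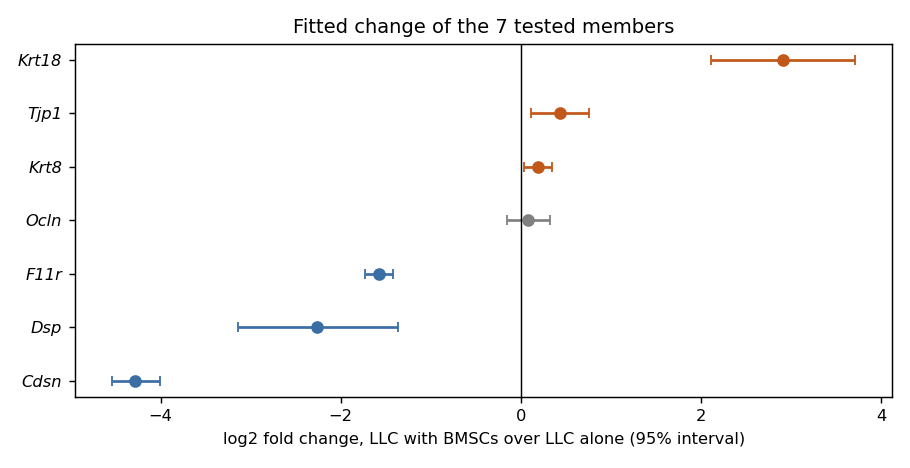
Fitted log2 fold change of LLC with BMSCs over LLC alone (horizontal axis) for the 7 tested members, with 95% intervals, in orange where higher, blue where lower and grey where not called. Cdsn at -4.28 and Krt18 at 2.91 are the ends of the range, and the interval of Ocln crosses 0.

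**Figure D4:**
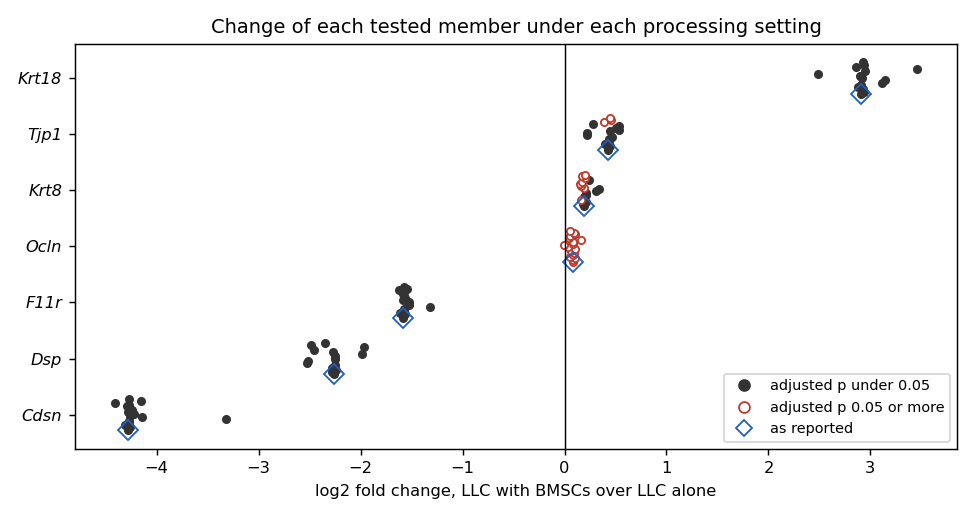
Log2 fold change of LLC with BMSCs over LLC alone (horizontal axis) of each tested member as reported (blue diamond) and under each alternative fit, filled where the adjusted p was under 0.05 and open in red otherwise. Cdsn, F11r, Dsp and Krt18 are filled under every fit that held them, Krt8 and Tjp1 are open under some, and Ocln is open under all.

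Of the other tight junction genes, 43 of 50 listed had a value and 20 were tested, of which 6 were higher, 7 lower and 7 not called (median log2 fold change -0.14, against 0.01 for all tested genes). Of those not called, Magi1 (log2 fold change -0.26, adjusted p = 0.000534), Cldn12 (-0.20, adjusted p = 0.00774) and Pard6b (-0.28, adjusted p = 0.0138) were called lower with the length trend removed. The lower gene Ybx3 then lost its call (-0.13, adjusted p = 0.0756). Scaffold genes moved both ways. Cgnl1, the junction protein paracingulin, rose from 1.16 ± 0.197 to 3.34 ± 0.328 FPKM (log2 fold change 1.52, SE 0.13, adjusted p = 5.24e-05). Magi2, a scaffold of the MAGUK family, fell from 1.86 ± 0.133 to 0.553 ± 0.0777 FPKM (-1.77, SE 0.13, adjusted p = 2.25e-05). Cldn9, a claudin of the tight junction strand, fell from 7.14 ± 0.74 to 2.27 ± 0.376 FPKM (-1.68, SE 0.14, adjusted p = 3.99e-05), with SD and n = 3 in each group here. These 3 calls held without any 1 library and with the length trend removed.

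Regulators and surface genes of epithelia, a list of 25, had a value for 21, of which 13 were tested and 4 were higher, 7 lower and 2 not called (median log2 fold change -0.51). Transcription factors were among the lower genes. Grhl2, a grainyhead factor known to hold epithelial gene expression, had 77, 64 and 66 counts in LLC alone and 18, 14 and 18 in LLC with BMSCs (log2 fold change -2.15, SE 0.20, adjusted p = 6.12e-05). Elf3, an epithelial ETS factor, changed by -0.51 (SE 0.09, adjusted p = 0.00205). Klf5, a Krüppel-like factor of epithelia, changed by -0.55 (SE 0.18, adjusted p = 0.0258), and its call was lost without LLC alone replicate 1 or 2 or LLC with BMSCs replicate 2 or 3 (adjusted p up to 0.087). It was lost with the length trend removed too (log2 fold change -0.43, adjusted p = 0.0852). Spint2 was lower, with 38, 25 and 54 counts against 6, 7 and 4 (log2 fold change -2.84, SE 0.31, adjusted p = 1.53e-04). Grhl1 (-1.66, SE 0.25, adjusted p = 7.68e-04) and Ovol1 (-1.60, SE 0.21, adjusted p = 3.48e-04) were lower too. The calls of Spint2, Grhl1 and Ovol1 held without any 1 library. Esrp2 (-1.14, SE 0.37, adjusted p = 0.029) lost its call without LLC alone replicate 1 or any LLC with BMSCs replicate. Lcn2, the secreted protein lipocalin 2, which neutrophils also express, was higher, with 505, 356 and 615 counts against 2429, 2199 and 2211 (log2 fold change 2.13, SE 0.10, adjusted p = 2.11e-06). Muc1, a surface mucin, was higher by 2.86 (SE 0.16, adjusted p = 4.80e-06), and Cd24a, a surface protein of epithelia and of blood cells, had 0 counts in each LLC alone library and 76, 79 and 68 in LLC with BMSCs, at least 22.7-fold higher. Grhl2, Spint2, Grhl1, Ovol1, Esrp2, Muc1 and Cd24a were named after their values were seen. Ehf, an ETS factor that was also named afterwards, was higher by 1.46 (SE 0.35, adjusted p = 0.0071). Its level was low, with 12, 3 and 6 counts in LLC alone and 19, 21 and 22 in LLC with BMSCs. The mesothelial marker Msln was higher as well, with 0, 3 and 0 counts against 62, 39 and 39 (at least 14.2-fold higher), and it was the only tested gene of the 5 mesothelial markers. Among the others, Wt1 had 0 counts in each LLC alone library and 1, 5 and 1 in LLC with BMSCs. Upk3b, Lrrn4 and Upk1b had 2 counts or fewer in any library. The part of Msln in the change of Krt18 was not tested.

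**Figure D5:**
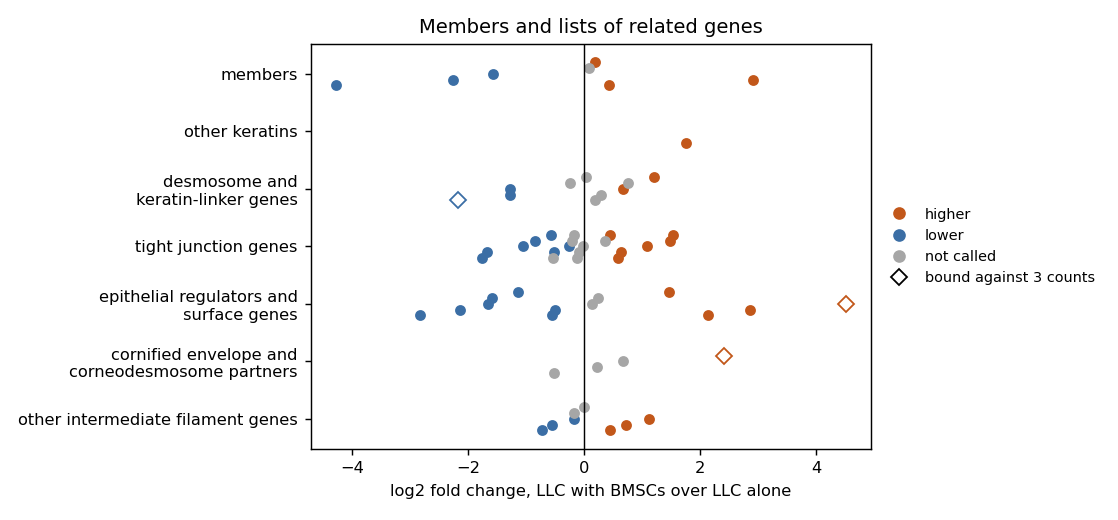
Fitted log2 fold change of LLC with BMSCs over LLC alone (horizontal axis) for the tested members and for the tested genes of 6 lists of related genes, 1 point per gene, coloured by call, with genes at the floor in 1 group drawn as open diamonds at their bound against 3 counts. Points lie on both sides of 0 among the members, the tight junction genes and the epithelial regulators.

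Read assignment limits some of these values. Krt8 shares part of its sequence with a processed pseudogene, Krt8-ps, that was not analysed here, and 101 bases of a Krt8 exon lie opposite an exon of Gm36026. Dsp and Krt7 also overlap transcripts on the other strand, and whether reads were counted by strand is not given in the sources used here.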

How the data were processed

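RNA of the sorted cells was sequenced in 6 libraries, grouped and numbered by their titles. The labels name Illumina protocols and the study's methods name BGI. The submitters' processing notes name HISAT, StringTie, Cufflinks, GATK and the build mm8, without roles. The authors deposited, per library, estimated counts (expected counts) of each gene and transcript, not normalized, with FPKM values scaled by transcript length and library total. FPKM was used for levels only.

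Estimated counts were rounded and tested with edgeR 4.0.16 in R 4.3.3 (TMM, default filter on low counts, quasi-likelihood test, Benjamini-Hochberg adjustment over 13353 genes, threshold 0.05), without covariates. Standard errors are the log2 fold change over the square root of the test statistic. The script was tested on simulated data. Normalized counts are CPM scaled to the mean effective library size, and log2 CPM used a prior count of 2. A group whose libraries were all at or under 3 counts gave a bound, and with both groups there no fold was given. The 95% intervals of fold changes come from the edgeR fit and hold the spread between libraries. The Epcam interval and the floor cover counting error only.

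The members and lists were chosen with earlier results of these data known. Of each pathway list, up to 4 genes were named: the 2 largest and 2 smallest log2 fold changes among genes called at 0.05 whose mean normalized count was at least 100. Of these genes, 1 is not reported here. Genes named outside this rule were chosen after their values were seen. Positions are from GENCODE M21 on GRCm38. Alternatives used DESeq2 1.42.0 and limma 3.58.1, other scalings and filters, FPKM pseudocounts of 1 and 0.1, removal of trends over length and GC, a stricter threshold, a replicate block and leaving out each library.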

Additional observations from a re-analysis of the deposited data

How the results depend on the processing

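Cdsn and F11r kept their direction and their call under all 17 alternative fits, with log2 fold changes of -4.41 to -3.32 and -1.62 to -1.32. Krt18 (2.49 to 3.46) and Dsp (-2.53 to -1.97) did so under the 14 fits that held them, since both were filtered out by at least 10 counts in every library and by the FPKM fits. Krt8 lost its call under 8 of 17 fits and Tjp1 under 3 of 17. Without 1 library, members called higher numbered 1 to 3 (1 without any LLC with BMSCs replicate, where Krt8 and Tjp1 were lost) and members called lower 3. Ocln turned to -0.00336 (adjusted p = 0.977) with the trends over length and GC removed, which could use 93.8% of tested genes.

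Under the stricter rule (adjusted p below 0.001, and 1 or more in size on the log2 scale), 1 member was higher and 2 were lower in place of 3 and 3, and of all tested genes 910 were higher in place of 4210 and 723 lower in place of 4183. Genes of the 6 related lists called higher were then 8 in place of 17, and those called lower 8 in place of 20. With limma on log2(FPKM + 1) and log2(FPKM + 0.1), 11 list genes were lower, fewer genes being tested. The replicate numbers are not known to pair the libraries, whose same-numbered deviations correlated at 0.08, -0.11 and 0.06. With the replicate block, 4161 genes were higher and 4058 lower, 2 members were higher and 3 lower, and Krt8 had an adjusted p of 0.0633. The close replicates (LLC alone 1 and 2, LLC with BMSCs 2 and 3) differed by more than sampling noise, with median chi-square ratios of 1.96 and 1.69 to expectation. The other replicates were much further apart, with ratios of 14.24 and 13.67 in LLC alone and 5.15 and 5.04 in LLC with BMSCs. Whether the close replicates came from separate tumours is not known. With each set of close replicates summed, Krt8 had an adjusted p of 0.277. The log2 ratio of Krt8 to Krt18 differed by -3.39 to -2.42 without 1 library.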
